A study of Mus musculus with 145 samples.

Results

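Ctnnd2 and Ctnnd1 encode delta-catenin and p120-catenin, and were examined as targets of transposon insertion in mouse mammary tumours. They are 2 of the 13391 gene regions of the authors' table, taken by their identifiers 18163 (Ctnnd2) and 12388 (Ctnnd1), which RefSeq pairs with these symbols. Every listed site between the start and the end of each region was used. A tumour counted as hit when a site there had at least 10 reads, and a position and strand read in several tumours was given only to the tumour with the most reads. The genes were chosen by their shares of hit tumours in the 2 groups, already known from these data, so the shares of resistant and untreated tumours are given below as a description, without a test.

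The resistant group held 51 tumours of 25 mice, which received BYL719 (alpelisib, an inhibitor of PI3K alpha) at 30 mg/kg daily once a tumour had reached 250 mm3 and whose tumours then grew over at least 3 consecutive measurements in 3 weeks. The untreated group held 94 tumours of 23 mice, counted by library. Untreated 88 has the suffix R2 and the mouse and gland of untreated 58, and without it the untreated group numbered 93. The resistant minus untreated differences in the share of hit tumours were then 6.83 percentage points for Ctnnd2 and 9.61 for Ctnnd1. Mice of both groups carried WAP-Cre, LSL-PB (a Cre-dependent piggyBac transposase), LSL-PIK3CA(H1047R) (a Cre-dependent gene for p110 alpha with an activating mutation) and the ATP1 transposon, and had been mated. Cre was under the WAP promoter, a milk protein promoter that switches on in mammary epithelium late in pregnancy, so recombination depended on pregnancy, and no ages were stated. Tumours are numbered within their group in the order of the sample list, and several tumours often came from 1 mouse. The material was genomic DNA of whole tumours, so cell type markers could not be read, and the reads at a site depend on the share of cells that carry it and on its amplification, which cannot be told apart.

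Libraries held 51 to 1604365 reads in resistant tumours (median 136932) and 2950 to 938987 in untreated tumours (median 48339). Insertions of at least 10 reads numbered 0 to 3319 per resistant tumour (median 469) and 0 to 2990 per untreated tumour (median 431). Titles had 4 forms, Tgtumor (35 tumours) and Mouse (16) in the resistant group and TgTum (61) and tgTum (33) in the untreated group, and each form was found in 1 group only. Median insertions were 633 (Tgtumor), 240 (Mouse), 730 (TgTum) and 257 (tgTum).

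Delta-catenins are armadillo-repeat proteins that bind the juxtamembrane segment of classical cadherins at adherens junctions. There p120-catenin keeps E-cadherin at the cell surface by slowing its endocytosis, and in the cytoplasm it restrains RhoA, acts on Rac1 and Cdc42, and binds the transcriptional repressor Kaiso. Delta-catenin shares these partners and is best known from neurons, where it takes part in dendrite and synapse formation. In the mammary gland p120-catenin is the family member known for holding the epithelial junctions together, and its move to the cytoplasm accompanies loss of E-cadherin in lobular breast cancer. The piggyBac transposon inserts at the sequence TTAA. ATP1 carries a promoter with a splice donor, which can drive the sequence downstream of it in the gene's own orientation, and splice acceptors with polyadenylation signals, which can end a transcript in either orientation.

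The letters that the transposon needs are shown first for the promoters of both genes, from 250 bases before to 50 bases after each start site (RefSeq, GRCm38.p6, 5′ to 3′ on the strand of the gene). Capitals mark each TTAA, the possible insertion sites of these windows.

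Ctnnd2 promoter, chr15:30172284-30172583, plus strand: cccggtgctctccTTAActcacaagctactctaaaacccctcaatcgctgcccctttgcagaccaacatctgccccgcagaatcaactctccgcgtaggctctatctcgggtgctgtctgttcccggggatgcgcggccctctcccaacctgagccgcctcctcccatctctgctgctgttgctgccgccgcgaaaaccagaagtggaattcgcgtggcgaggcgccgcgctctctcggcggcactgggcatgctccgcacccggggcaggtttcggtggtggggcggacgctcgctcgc
Ctnnd1 first promoter, chr2:84658928-84659227, minus strand: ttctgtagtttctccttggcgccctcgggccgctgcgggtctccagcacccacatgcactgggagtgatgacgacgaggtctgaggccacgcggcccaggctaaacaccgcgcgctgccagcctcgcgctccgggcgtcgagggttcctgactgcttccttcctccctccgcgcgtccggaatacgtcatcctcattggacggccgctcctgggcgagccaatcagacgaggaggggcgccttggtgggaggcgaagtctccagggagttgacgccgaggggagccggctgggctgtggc
Ctnnd1 second promoter, chr2:84650691-84650990, minus strand: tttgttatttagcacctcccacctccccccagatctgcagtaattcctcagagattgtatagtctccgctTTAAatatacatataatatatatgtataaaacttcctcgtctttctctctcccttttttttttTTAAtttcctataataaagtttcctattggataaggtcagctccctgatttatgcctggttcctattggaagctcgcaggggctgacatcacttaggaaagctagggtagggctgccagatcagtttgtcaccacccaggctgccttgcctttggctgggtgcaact

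The Ctnnd2 window held 1 TTAA, the first Ctnnd1 window 0 and the second Ctnnd1 window 2. TTAA reads the same on both strands, and 52.4% of 32851 RefSeq promoter windows of this length held at least 1. The GC content was 64.7% in the Ctnnd2 window, 67.7% in the first Ctnnd1 window and 42.7% in the second. None of the listed sites lay in any of the 3 windows (0 sites in each). Exons and introns were not assigned, as no gene model was used.

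The Ctnnd2 region spanned chr15:30170593-31029343 (mm10, plus strand, 859 kb) and began 1941 bp before the RefSeq start site. The Ctnnd1 region spanned chr2:84600781-84652740 (minus strand, 52 kb). It began 6.24 kb downstream of the first RefSeq start site and included the second, at position 84650740. At its other end it stopped short of the RefSeq end of the gene, so that 19922 of 71882 bp of the RefSeq span lay outside it. The Ctnnd2 region was 16.5 times as long as the Ctnnd1 region, while the RefSeq spans were 856811 and 71882 bp. Counts of hit tumours cannot be compared between the genes without regard to length.

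The sequence context of an insertion is the 8 bases that the authors' site table gave on the strand of the site, again with TTAA in capitals. All 8 Ctnnd1 insertions are shown, since their small number carries the group difference, together with the 6 most read Ctnnd2 insertions and the one Ctnnd2 site that lacked TTAA.

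Ctnnd1, resistant 48, position 84651439: TTAAgaat
Ctnnd1, resistant 18, position 84641843: TTAAaaga
Ctnnd1, resistant 20, position 84633444: TTAAtaag
Ctnnd1, resistant 8, position 84631464: TTAAtggg
Ctnnd1, resistant 10, position 84626675: TTAAatgt
Ctnnd1, resistant 33, position 84622420: TTAAtaac
Ctnnd1, untreated 20, position 84633928: TTAAtata
Ctnnd1, untreated 51, position 84618642: TTAAacaa
Ctnnd2, resistant 35, position 30529835: TTAAacac
Ctnnd2, resistant 40, position 30492795: TTAAattg
Ctnnd2, resistant 24, position 30732185: TTAAcaaa
Ctnnd2, resistant 3, position 30909274: TTAAggga
Ctnnd2, untreated 56, position 30317157: TTAAagga
Ctnnd2, untreated 22, position 30211094: TTAAaagg
Ctnnd2, untreated 19, position 30246796: ctaaaggt

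TTAA opened the context of 8 of 8 Ctnnd1 insertions and 44 of 45 Ctnnd2 insertions, against 96.3% of the 101078 sites kept in the whole series. The exception, in untreated tumour 19, had 14 reads.

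Ctnnd2 was hit in 15 of 51 resistant tumours (29.4%, with a Clopper-Pearson 95% interval from 17.5 to 43.8), against 21 of 94 untreated tumours (22.3%, from 14.4 to 32.1). The difference of 7.07 percentage points was equalled or exceeded by 6.8% of the 2558 genes hit in at least 5 tumours. Counted by mouse, 10 of 25 resistant and 15 of 23 untreated mice had a tumour hit in Ctnnd2. The mean share of hit tumours per mouse was 26% in resistant mice and 27.7% in untreated mice, so that the direction of the tumour count was not kept when each mouse had the same weight. Several tumours of 1 mouse were hit in 4 resistant mice (at most 3 tumours) and 6 untreated mice (at most 2). Without the resistant mouse of tumours 22, 23 and 24, which were all hit, the difference was 2.66 percentage points. The intervals cover the counting of tumours only, since neither tumours of 1 mouse nor PCR reads that lack molecular identifiers are independent.

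These tumours carried 45 Ctnnd2 insertions, 22 in resistant and 23 in untreated tumours, or 5.93 and 3.62 per 10000 insertions of the group. Resistant tumour 27 alone held 6, with 14 to 47 reads each, among its 2454 insertions. Resistant tumours 5 and 11 and untreated tumours 30 and 56 held 2 each, and the other hit tumours 1. Hit tumours had many insertions in general, with a median of 756 in resistant (141 to 2637) and 1134 in untreated tumours (215 to 2817), above the group medians of 469 and 431. Whether the number of insertions of a tumour set its chance of a Ctnnd2 hit was not tested.

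Ctnnd1 was hit in 6 of 51 resistant tumours (11.8%, with an interval from 4.44 to 23.9), against 2 of 94 untreated tumours (2.13%, from 0.259 to 7.48). The difference of 9.64 percentage points was equalled or exceeded by 2.81% of the same 2558 genes. Hit tumours came from 5 of 25 resistant and 2 of 23 untreated mice, and the mean share per mouse was 14.7% and 1.81%. Each hit tumour held a single insertion, which made 1.62 per 10000 insertions in resistant tumours and 0.315 in untreated tumours. Resistant tumours 8 and 10 came from the same mouse, without which the difference was 6.21 percentage points. Resistant tumour 8 was also the one tumour hit in both genes, and either gene was hit in 20 resistant and 23 untreated tumours.

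Over all genes the comparison of the groups gave no call. In two-sided Fisher exact tests of each gene, 0% of 2558 genes were called higher and 0% lower in resistant tumours after Benjamini-Hochberg adjustment, and the smallest adjusted p was 0.419. A gene hit in few tumours could not pass this adjustment on its own at any split, so the lack of a call is no result about such a gene. At an unadjusted p under 0.05, 60 genes (2.35%) were higher and 17 (0.665%) lower. The groups differed in size, so these counts cannot be set against each other as an excess of either direction. Cdh4, hit in 0 resistant and 7 untreated tumours, had an unadjusted p of 0.0522 in the Fisher exact test. A gene hit in 7 tumours or fewer could therefore not count as lower at any split. The median gene differed by 0.56 percentage points, at median shares of 5.88% in resistant and 5.32% in untreated tumours.

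The shares moved with the title form. Ctnnd2 was hit in 13 of 35 Tgtumor tumours (37.1%, 21.5 to 55.1) and 2 of 16 Mouse tumours (12.5%, 1.55 to 38.3) within the resistant group. Within the untreated group it was hit in 17 of 61 TgTum tumours (27.9%, 17.1 to 40.8) and 4 of 33 tgTum tumours (12.1%, 3.40 to 28.2). In each group the form with more insertions per tumour had the larger share, and the part of the form in the group values was not tested. Ctnnd1 followed the same order, with 5 of 35 (14.3%) and 1 of 16 (6.25%) in the resistant forms and 2 of 61 (3.28%) and 0 of 33 (upper limit 10.6%) in the untreated forms. The group and the title form cannot be told apart, as each form held 1 group.

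**Figure D1:**
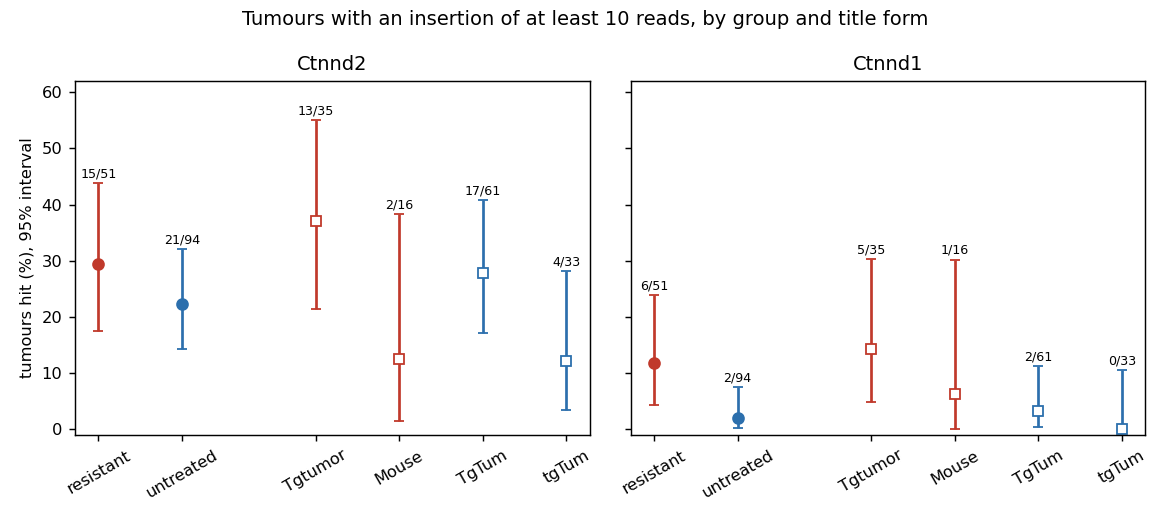
Share of tumours hit (%, vertical axis) in Ctnnd2 (left) and Ctnnd1 (right) for resistant and untreated tumours (filled) and for the 4 title forms (open). Bars are Clopper-Pearson 95% intervals and the labels give hit tumours over tumours. The Ctnnd2 shares of the Mouse (12.5%) and tgTum (12.1%) forms lie close together, below those of Tgtumor (37.1%) and TgTum (27.9%).

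The Ctnnd2 insertions covered most of the gene. In resistant tumours they lay 54.3 to 737 kb downstream of the start site (median 318 kb) and in untreated tumours 6.24 to 820 kb (median 198 kb). The nearest to the start, in untreated tumour 91, was in opposite orientation with 18 reads, and the ranges of the groups overlapped over nearly their whole length. The first 30% of the region held 9 of 22 resistant and 13 of 23 untreated insertions, the next 40% held 11 and 7, and the last 30% held 2 and 3. The stretch from 10% to 20% of the region was the fullest of 10 equal stretches, with 11 insertions (5 resistant, 6 untreated), 8 of them in the orientation of the gene. The stretch from 40% to 50% held 4, all opposite to the gene. The longest interval without an insertion, 95.5 kb, ran from 562 to 658 kb. The closest neighbours were 15 bp apart, in untreated tumours 71 and 31 of different mice, both in the orientation of the gene, with 59 and 45 reads.

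**Figure D2:**
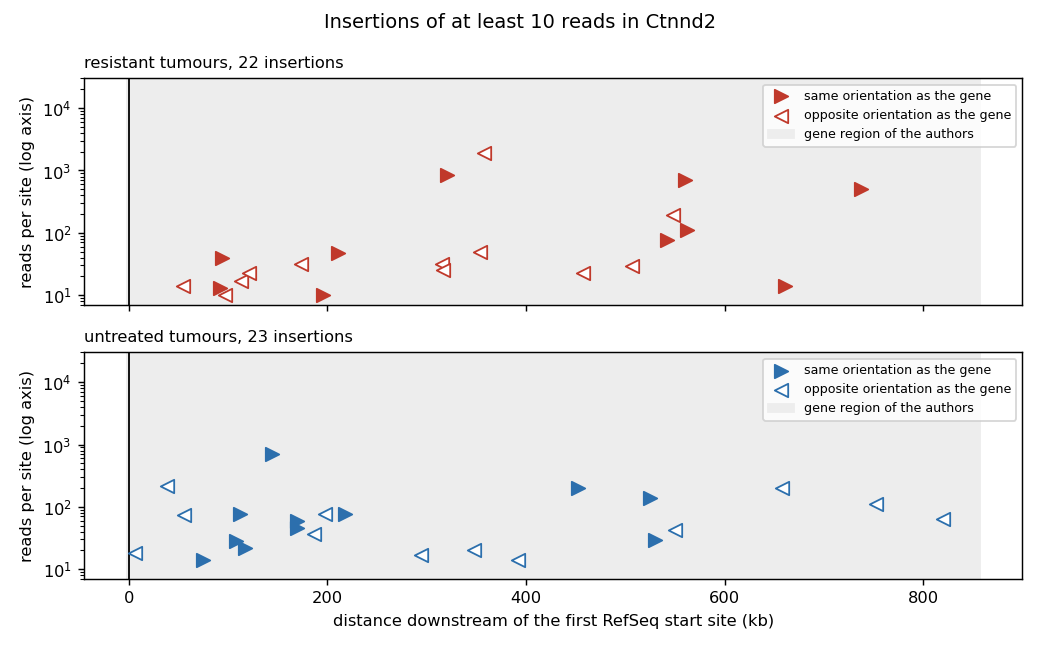
Insertions of at least 10 reads in Ctnnd2 by distance from the RefSeq start site (kb, vertical line at 0) and by reads (log axis), in resistant tumours (upper panel, 22) and untreated tumours (lower panel, 23). Filled triangles point in the direction of the gene and open triangles against it. Insertions of both groups and both orientations are spread over the region, with 5 of 45 in its last 30%.

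RefSeq places 7 other genes within the Ctnnd2 region, 6 long non-coding RNAs and 1 snRNA, and none within Ctnnd1. Of the 45 Ctnnd2 insertions, 11 also lay inside one of them. Gm41283 (chr15:30683476-30732723) held 6 of these, in resistant tumours 5, 28 and 24 and in untreated tumours 55, 23 and 30. Gm41284 held 3, and Gm31841 and Gm31953 held 1 each. An insertion there cannot be assigned to Ctnnd2 rather than to the nested gene.

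The 8 Ctnnd1 insertions lay 7.54 to 40.3 kb downstream of the first start site. Both untreated insertions were in the orientation of the gene, at 40.3 kb in tumour 51 (132 reads) and 25 kb in tumour 20 (11 reads). Of the 6 resistant insertions, 2 had the orientation of the gene, at 25.5 kb in tumour 20 (10 reads) and 17.1 kb in tumour 18 (90 reads). The other 4 were opposite, at 36.6 kb in tumour 33 (20 reads), 32.3 kb in tumour 10 (14 reads), 27.5 kb in tumour 8 (15 reads) and 7.54 kb in tumour 48 (249 reads). The insertion of resistant tumour 48 was the one nearest to a start site, 699 bp upstream of the second, and the only one upstream of it. It had the most reads of the 8 by number, in a library of 683360 reads, where it made 0.0364% of the reads and was 597th in its tumour. By share of the library the largest was that of untreated tumour 51, with 0.528% of the reads and 10th in its tumour, above every Ctnnd2 insertion as well. Resistant tumour 18 followed with 0.205% (34th). The other 4 resistant insertions made 0.00904% to 0.0297% of the reads of their libraries and were 501st to 2751st, and that of untreated tumour 20 made 0.0212% and was 1004th. The untreated insertion of tumour 51 had reads in 5 libraries, and untreated tumour 27 also reached 10 reads at that position. Read values of the groups overlapped, with medians of 17.5 in resistant tumours and the values 11 and 132 in untreated tumours.

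**Figure D3:**
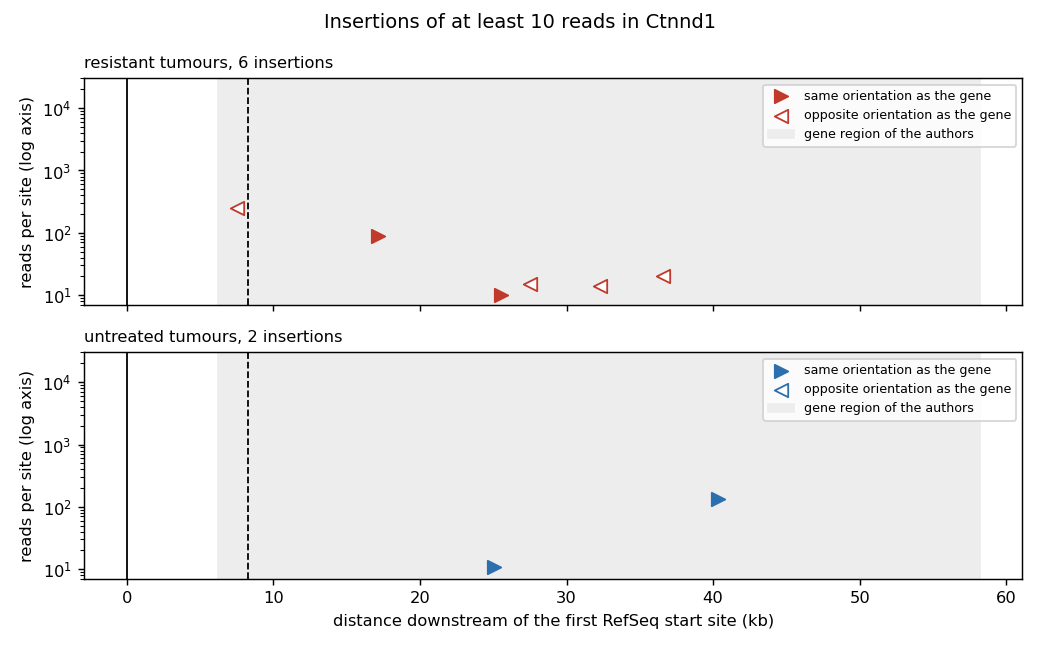
Insertions of at least 10 reads in Ctnnd1 by distance from the first RefSeq start site (kb, solid line at 0) and by reads (log axis), in resistant tumours (upper panel, 6) and untreated tumours (lower panel, 2). The dashed line is the second start site, the shaded area the authors' region, filled triangles point in the direction of the gene and open triangles against it. One resistant insertion, at 7.54 kb, lies between the start sites, and the others lie downstream of both.

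Orientation was not used to choose the genes and was tested over all gene regions with at least 6 insertions and a known strand. Of the Ctnnd2 insertions, 21 of 45 had the orientation of the gene (46.7%, 31.7 to 62.1), with 10 of 22 in resistant and 11 of 23 in untreated tumours. This did not differ detectably from an even split (two-sided exact binomial test, p = 0.766, Benjamini-Hochberg adjusted p = 1 over 1601 genes). Of the Ctnnd1 insertions, 4 of 8 had the orientation of the gene (50%, 15.7 to 84.3, exact binomial p = 1, adjusted p = 1). With 8 insertions the adjusted test could not have called Ctnnd1 at any split, so it decides nothing for this gene. Of the 1601 genes, 2 (0.125%) had an adjusted p below 0.05 in that test, and 51 (3.19%) had an unadjusted p below it. The 2 genes with an adjusted p below 0.05 lay on chromosome 10, the donor chromosome of the transposon. The share of same-orientation insertions in Ctnnd2 rested on resistant tumour 27, of whose 6 insertions 5 were opposite. Without that tumour it was 51.3%, and with only the most read insertion of each tumour it was 19 of 36 (52.8%, 35.5 to 69.6, exact binomial p = 0.868), in 9 of 15 resistant and 10 of 21 untreated tumours. The intervals therefore leave room for a moderate excess of either orientation in Ctnnd2 and for a large one in Ctnnd1.

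Ctnnd2 insertions had 10 to 1932 reads in resistant tumours (median 31.5) and 14 to 712 reads in untreated tumours (median 59). As a share of the reads of the library these were 0.00195% to 0.308% (median 0.0233%) and 0.00685% to 0.262% (median 0.0483%). The most read Ctnnd2 insertion, in resistant tumour 35, had 1932 reads, was 6th by reads in its tumour and lay opposite to the gene at 357 kb. Resistant tumour 40 had 838 reads (36th in its tumour), resistant tumour 24 had 716 (31st), resistant tumour 3 had 506 (43rd) and resistant tumour 28 had 196 (27th). The insertion of resistant tumour 35 also lay inside Gm41284, and those of resistant tumours 24 and 28 inside Gm41283. They cannot be assigned to Ctnnd2 rather than to these nested genes. The most read untreated insertion, in tumour 56, had 712 reads and was 101st, and the highest placed, in tumour 18, had 78 reads and was 44th. Counting only the 100 most read sites of each tumour therefore left 5 resistant tumours and 1 untreated tumour hit in Ctnnd2, of which the 5 resistant insertions were 3 in the orientation of the gene and 2 opposite. These values belong to the contrast by which the gene was picked. Over all insertions the median place was 570th in resistant and 436th in untreated tumours.

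The counts depended on which sites were admitted. For Ctnnd2, 300 sites per tumour left 8 resistant tumours and 8 untreated tumours hit, and at least 100 reads left 6 and 5. Another rule asked for 10 reads per 50000 reads of the library, with sites read in the majority of libraries left out of that total. Under it a site with fewer than 10 reads could count in a small library. It gave 11 resistant tumours (21.6%) and 21 untreated tumours (22.3%), so that the difference became -0.77 percentage points. With at least 1 read the counts were 22 (43.1%) and 32 (34%). For Ctnnd1, the 6 resistant and 2 untreated tumours became 1 and 1 with 100 reads, with 100 sites and with 300 sites, a difference of 0.897 percentage points. With 10 reads per 50000, scaled in the same way, they became 4 and 2, and with at least 1 read 7 and 5. Among the 96 listed Ctnnd2 sites, 12 had 0 reads, 39 had 1 to 9 and 45 had 10 or more, of which 10 had 10 to 19. Among the 12 listed Ctnnd1 sites 4 had 1 to 9 reads, and 4 of the 8 counted had 10 to 19. The reads nearest the threshold were 9 below and 10 above it in Ctnnd2, and 8 and 10 in Ctnnd1.

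**Figure D4:**
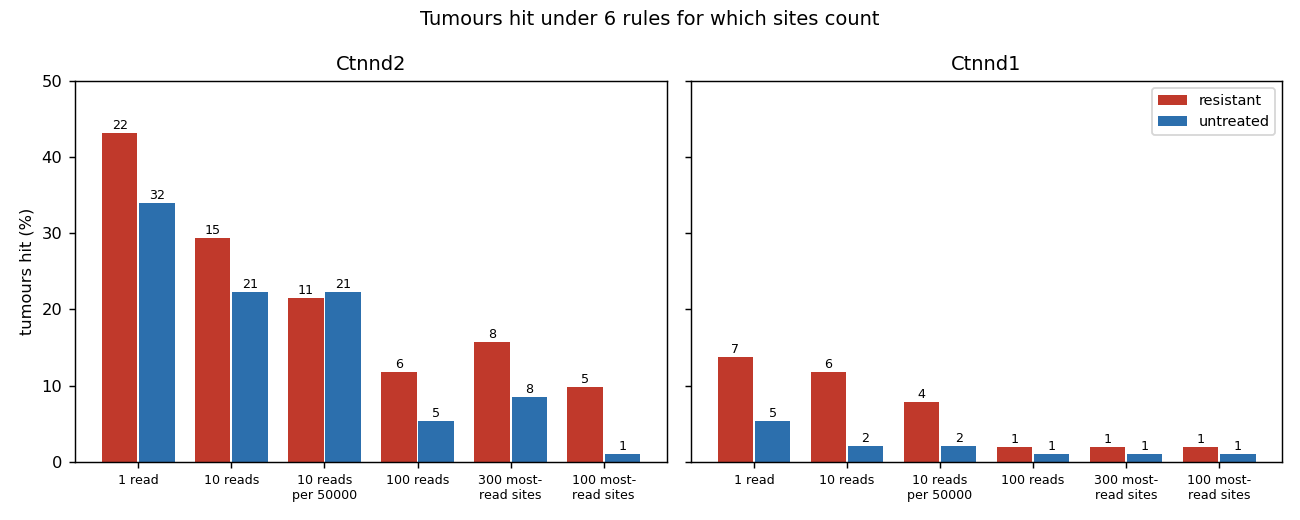
Share of tumours hit (%, vertical axis) in Ctnnd2 (left) and Ctnnd1 (right) under 6 rules for which sites count, with resistant tumours left of untreated tumours in each pair and the number of hit tumours above each bar. In Ctnnd2 the resistant bar is the higher under 5 rules and the lower with 10 reads per 50000, where the total leaves out sites read in the majority of libraries. In Ctnnd1 the pair stands at 1 and 1 tumours under the 3 strictest rules.

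Insertions per 100 kb were set against regions of at least 500 kb, without an upper limit, for Ctnnd2 and of 40 to 65 kb for Ctnnd1. Chromosome 10, which held 20.9% of the sites kept and 6.23% of gene regions, was left out. Over all 12557 regions that remained, the median was 4.29 per 100 kb, with Ctnnd2 at percentile 58.8 and Ctnnd1 at percentile 91. Ctnnd2 had 5.24 insertions per 100 kb, against a median of 3.21 in 215 regions of at least 500 kb, of which 23 had more. It was hit in 36 tumours, against a median of 21, and 17 of those regions were hit in more. Ctnnd1 had 15.4 insertions per 100 kb, against a median of 3.68 in 2002 regions of 40 to 65 kb, of which 32 had more. It was hit in 8 tumours, against a median of 2, and 17 of those regions were hit in more. These places count both groups together and describe the genes without a test, and the number of TTAA in each region was not counted. The hit tumours also entered the choice of the genes, so a high place is not independent of that choice. The Ctnnd1 rate used the length of the authors' region, and the RefSeq span of 71882 bp lies above the class of 40 to 65 kb.

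The authors' deposited table, whose rule for a hit was not stated, listed more tumours than the rule of 10 reads. For Ctnnd2 the authors' deposited table gave 31 insertions in 23 resistant tumours (45.1%) and 41 insertions in 35 untreated tumours (37.2%). Its signed −log10 p-value score was 0.83 for resistant and 0.204 for untreated tumours. For Ctnnd1 the authors' deposited table gave 8 insertions in 8 resistant tumours (15.7%) and 5 insertions in 8 untreated tumours (8.51%), with scores of 3.66 and 0.971. The authors' deposited table listed 14 same and 17 opposite insertions for Ctnnd2 in resistant tumours and 16 and 25 in untreated tumours.

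Genes of the same junctions were examined from 5 lists, which besides the delta-catenins held 49 genes, 41 of them in the table. Of these 41, 21 had a larger and 19 a smaller share in resistant tumours, and 1 was equal. The median difference over the lists was 0.63 percentage points, against 0.56 over all 2558 genes tested. By the Fisher exact test over all 2558 genes, 0 of the 27 listed genes that could be tested passed the threshold in either direction, and 0 had an unadjusted p under 0.05. Listed genes hit in few tumours could not have passed the adjusted threshold on their own at any split.

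The closest relatives were hit in few tumours, in regions shorter than that of Ctnnd2, and Pkp1 and Pkp3 had no region in the authors' table. Arvcf (60.9 kb) and Pkp2 (61.4 kb) were near the class of 40 to 65 kb, where the median region was hit in 2 tumours. The Pkp4 region was 196 kb long. Pkp4, a plakophilin-like member of the p120 family, was hit in 4 resistant and 2 untreated tumours (adjusted p = 1 by the Fisher exact test). With so few hits Pkp4 could not have passed that adjustment on its own at any split. Pkp2, a desmosomal plakophilin, was hit in 0 and 2, and Arvcf, a p120 family catenin that binds the juxtamembrane site, in 0 and 0.

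Among the alpha- and beta-catenins, 3 of 5 had the larger share in resistant tumours (median difference 0.73 points). Ctnna1, the epithelial alpha-catenin that links the cadherin complex to actin, had hits in 10 resistant tumours (19.6%), against 9 untreated tumours (9.57%), which did not pass the test (adjusted p = 1 by the Fisher exact test). Ctnna2, the neural alpha-catenin, was hit in 11 and 18, and Ctnna3, on chromosome 10, in 26 and 62. Ctnnb1, beta-catenin, was hit in 2 and 3.

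Of the 11 classical cadherins, 5 had the larger and 6 the smaller share in resistant tumours (median difference -0.50 points). Cdh18 was hit in 14 and 19 tumours and Cdh12 in 5 and 14, and both lie on chromosome 15 with Ctnnd2. Cdh1, E-cadherin, was hit in 3 resistant and 2 untreated tumours, and Cdh4, R-cadherin, in 0 and 7.

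Of the 12 p120 partners and effectors, 7 had the larger share in resistant tumours (median difference 1.79 points). Arhgap35, which encodes p190RhoGAP, was hit in 7 and 9, Arhgef28, a guanine nucleotide exchange factor, in 7 and 7, and Grip1, a scaffold of synaptic receptors on chromosome 10, in 15 and 35. Zbtb33, which encodes Kaiso, was hit in 0 and 2. The 10 junction linkers were split 5 to 5 (median difference 0.26 points). Tjp1, hit in 6 resistant and 3 untreated tumours, had the widest difference of these linkers (8.57 points) and did not pass the Fisher exact test. Magi2 and Magi1, scaffolds at junctions, were hit in 13 and 22 and in 9 and 16 tumours, Pard3, a polarity protein, in 7 and 13, and Afdn, afadin, in 3 and 9.

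**Figure D5:**
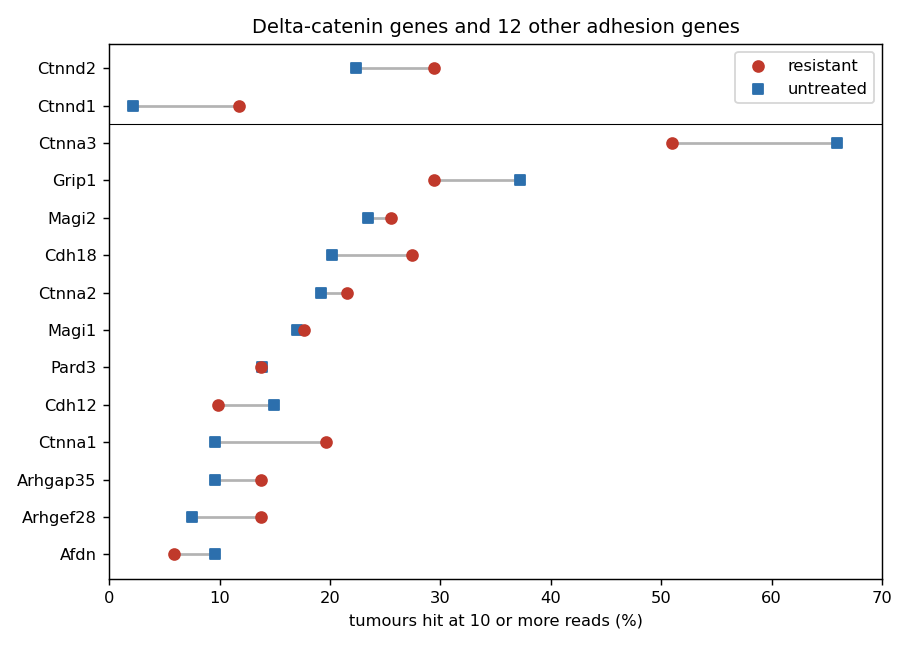
Share of tumours hit (%, horizontal axis) in Ctnnd2, Ctnnd1 and the 12 other adhesion genes that were hit in most tumours, for resistant (circles) and untreated tumours (squares). The grey line joins the groups of a gene. Ctnna1 has a difference about as wide as that of Ctnnd1 (19.6% and 9.57%), and Ctnna3 lies the other way (51% and 66%).

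The genes hit in the tumours most like those of Ctnnd2 were found by the Jaccard index, the shared tumours over the tumours hit in either gene, over 2079 genes outside chromosomes 10 and 15. Lrp1b reached 0.365, with 23 shared tumours (63.9% of those of Ctnnd2 and 46% of its own). Kmt2c reached 0.333 with 21 shared tumours (58.3% and 43.8%), Lingo2 0.314 with 16 (44.4% and 51.6%) and Zbtb20 0.308 with 20 (55.6% and 40.8%). The median gene had 0.0769. The numbers of hit tumours cap the index, at 0.72 for Lrp1b, 0.75 for Kmt2c, 0.861 for Lingo2 and 0.735 for Zbtb20. These genes were hit in 50, 48, 31 and 49 tumours, in regions of 2060, 229, 1250 and 853 kb, and Ctnnd2 was hit in 36. A gene hit in few tumours is bound to a low index, so the median is no measure of likeness for often-hit genes. Of the shared tumours of Lrp1b, 9 were resistant and 14 untreated, and those of Kmt2c were 11 and 10. The tumours hit in Ctnnd2 had more insertions than the group medians, as given above, and their part in the likeness was not tested.

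Of the 15 resistant tumours hit in Ctnnd2, 9 were also hit in Nf1, the neurofibromin gene that the study's title names, as were 4 of the 21 untreated tumours. Nf1 itself was hit in 18 of the 51 resistant tumours and 8 of the 94 untreated ones. Of the tumours hit in Ctnnd1, 4 of 6 resistant and 0 of 2 untreated tumours were also hit in Nf1. Kmt2c, a histone methyltransferase gene, was hit in 11 of the 15 resistant and 10 of the 21 untreated tumours with a Ctnnd2 hit, against 24 of 51 and 24 of 94 tumours in all. Fbxw7, which picks substrates for a ubiquitin ligase, was hit in 7 of 15 and 3 of 21, against 22 of 51 and 21 of 94 in all. Trps1, on chromosome 15 with Ctnnd2, was hit in 14 of 15 and 18 of 21, against 41 of 51 and 73 of 94 in all. These shared hits are given as counts, and whether they moved with the number of insertions of a tumour was not tested.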

How the data were processed

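Insertion sites were mapped by splinkerette PCR of sheared tumour DNA, in 4 library pools read as pairs of 100 bp on a HiSeq 2500, per the labels' protocols. The submitters' processing notes name the build mm10, while the aligner and site caller were not stated. The authors deposited, per library, a read count at each of 198107 sites, with no scaling as far as the values show, together with 2 further whole numbers that the file headers do not define and that were used only in alternatives. Another 435 per-library columns were not used. Per the file headers, the authors' deposited region table gave the percent of tumours hit in each group and a signed −log10 p-value, used as a score, from a test for common integration sites whose method was not stated.

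Sites of at least 10 reads were kept in the tumour with the most reads (101078 sites), and those of a tumour within 10 bp and on the same strand were joined (100625 insertions). In 12 kept sites the highest reads were tied. Groups came from the treatment labels and mice from the titles, which name 48 mice, whereas the labels state 53. Replicates were numbered in the order of the sample list. RefSeq gene tables of GRCm38.p6 gave symbols for 12384 of 13391 gene regions and strands for 9755. To check the strands, orientation shares from sites of at least 1 read were set against the authors' shares. They lay within 25 percentage points in 99.9% of 1366 genes with at least 10 insertions in each set, against 72.5% with strands flipped. Shares have Clopper-Pearson 95% intervals. Orientation was tested by a two-sided exact binomial test over gene regions with at least 6 insertions, and group shares of genes other than these by a two-sided Fisher exact test over genes hit in at least 5 tumours, both with Benjamini-Hochberg adjustment and a threshold of 0.05. The orientation test was checked on simulated data. Python 3.11.15, pandas 2.3.3 and scipy 1.17.1 were used. The members, the adhesion lists and the tests were chosen with earlier results of these data known. Named adhesion genes were the 12 hit in the most tumours of the lists, plus close relatives and well-known members named after their values were seen. Named like genes were among the 5 of highest Jaccard index, of which 1 is not reported here, and the 4 genes of the shared hits came from earlier results.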

Additional observations from a re-analysis of the deposited data

How the results depend on the processing

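The difference in Ctnnd2 tumours hit (7.07 percentage points) ranged from -0.77 to 9.27 over 15 alternatives. The lowest came with 10 reads per 50000, scaled as described above, and the highest with the Tgtumor and TgTum forms only. Apart from the lowest, the difference was above 0 in the other 14. Leaving out each mouse gave 2.66 to 8.91. The difference in Ctnnd1 (9.64) was 0.897 with at least 100 reads, with 100 sites and with 300 sites per tumour, and -1.06 with at least 2 in the deposited div column, which is not defined, an alternative added after seeing the data. Leaving out each mouse gave 6.21 to 10.7. The share of Ctnnd2 insertions in the orientation of the gene (46.7%) crossed an even split at 58.3% with 100 reads, 66.7% with 100 sites, 56.2% with 300 sites and 57.1% with the div column, and at 51.3% without resistant tumour 27, both of the last added after seeing the data. Leaving out each mouse gave 44.2% to 52.6% for Ctnnd2 and 42.9% to 66.7% for Ctnnd1. The adjusted p for orientation was 1 under each of these alternatives in which the gene was tested, and the causes of these changes were not tested. Ctnnd1 orientation was not tested with 100 reads, with 100 or 300 sites or with the div column, where at most 2 insertions were left. No paired analysis was possible because the replicate numbers only follow the order of the sample list and the groups share no mouse. Of the 8 Ctnnd1 insertions, 4 had 10 to 19 reads, close to the minimum of 10.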
